A study of Mus musculus with 36 samples.

Results

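The genes described here are 10 genes of antioxidant defence and glutathione metabolism, *Nfe2l2*, *Nqo1*, *Hmox1*, *Gclc*, *Gclm*, *Gsta3*, *Gsta4*, *Gpx3*, *Sod2* and *Sod3*, chosen by name out of the 55536 genes counted in 36 RNA sequencing libraries. The libraries came from mouse brown pre-adipocytes, the precursor cells of thermogenic fat, in which both copies of *Rxra* had been disrupted by CRISPR/Cas9 (*Rxra*-/-). *Rxra* encodes retinoid X receptor alpha, the nuclear receptor that pairs with PPARgamma in fat cells. Every library, controls included, therefore came from a knockout line, and each line was 1 clone transduced with a retroviral vector: cell cultures 48 and 66 were 2 such clones, each re-expressing either wild type *Rxra* (*Rxra*WT) or *Rxra* with the S22A substitution (*Rxra*SA), which removes a serine phosphorylated after insulin stimulation. Cells were collected before adipogenic induction (day 0) and at days 2 and 6 after it, with 3 libraries in each of the 12 combinations of clone, genotype and day. By the paper's protocol the medium held insulin and triiodothyronine before day 0 and throughout. Dexamethasone, isobutylmethylxanthine and indomethacin were present from day 0 to day 2 only, so day and medium cannot be told apart. The study asked whether loss of this phosphorylation site alters transcription as the cells differentiate.

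Cells carry a shared set of defences against oxidants and reactive electrophiles. The transcription factor NRF2, encoded by *Nfe2l2*, is held at a low level by KEAP1-directed degradation and, once released, binds antioxidant response elements together with small MAF proteins and raises transcription of genes such as *Nqo1*, *Hmox1*, *Gclc* and *Gclm*. Glutathione, made by glutamate-cysteine ligase and glutathione synthetase, is the main soluble thiol: glutathione S-transferases attach it to electrophiles and glutathione peroxidases use it to reduce peroxides, while superoxide dismutases turn superoxide into hydrogen peroxide. Differentiating fat cells gain mitochondria and lipid at the same time, and both are sources of reactive oxygen and of aldehydes from oxidised lipid.

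The antioxidant response element has the core TGACNNNGC, where N is any base. RefSeq promoters (GRCm38.p6, 250 bases before to 50 after the start) were held for 6 of the 10 genes, *Nfe2l2*, *Nqo1*, *Gclm*, *Gsta3*, *Gpx3* and *Sod2*, and the core, read on both strands, lay in 3 of them. They are shown because, of the 6 windows searched, theirs hold letters that match this core, and because their time courses, given below, were unlike each other. The other members had no promoter to search. Each is written 5′ to 3′ on the strand of its gene with the matched core in capitals.
Nfe2l2, chr2:75704614-75704913, minus strand: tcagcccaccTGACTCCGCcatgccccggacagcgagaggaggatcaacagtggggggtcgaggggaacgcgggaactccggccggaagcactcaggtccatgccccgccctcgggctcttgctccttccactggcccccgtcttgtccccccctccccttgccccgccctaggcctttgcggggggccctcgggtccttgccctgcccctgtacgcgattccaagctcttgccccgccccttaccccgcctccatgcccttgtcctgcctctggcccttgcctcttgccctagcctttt
Gclm, chr3:122245307-122245606, plus strand: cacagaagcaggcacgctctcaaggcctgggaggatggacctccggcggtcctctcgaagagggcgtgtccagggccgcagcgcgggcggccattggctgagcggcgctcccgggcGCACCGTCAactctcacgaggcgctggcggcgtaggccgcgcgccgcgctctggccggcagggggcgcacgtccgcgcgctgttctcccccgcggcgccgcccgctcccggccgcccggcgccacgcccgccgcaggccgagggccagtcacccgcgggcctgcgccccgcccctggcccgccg
Gsta3, chr1:21240335-21240634, plus strand: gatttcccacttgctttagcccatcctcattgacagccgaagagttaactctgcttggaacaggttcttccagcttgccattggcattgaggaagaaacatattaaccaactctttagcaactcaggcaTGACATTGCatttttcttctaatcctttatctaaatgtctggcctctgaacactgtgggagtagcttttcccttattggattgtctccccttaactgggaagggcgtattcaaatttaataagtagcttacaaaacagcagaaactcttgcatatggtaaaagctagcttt
As printed, the match began 240 bases before the start of *Nfe2l2*, 134 bases before that of *Gclm* and 121 bases before that of *Gsta3*. In *Gclm* the core reads on the opposite strand, so the printed match begins with its last base. The same core was found in 12.4% of the 32851 promoters of this length. The half-site of nuclear receptors, AGGTCA, searched on both strands, was in none of the 6 windows and in 16.3% of all promoters. A match describes these letters only.

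Total counts per library ranged from 11351078 to 24349263 with a median of 18338726, and all 10 genes passed the filter on low counts, as did 16723 genes in all. Values are CPM, the counts of a gene as a share of its library's total after TMM scaling, which corrects totals for differences in composition. The smallest chi-square per degree of freedom between libraries of a group was 13.5, so that no library was a copy of another. *Rxra*, which the counts of both constructs enter, had 92.6 to 233 CPM at day 0, 400 to 712 at day 2 and 182 to 347 at day 6, and did not separate the genotypes (adjusted p = 1.0 at each day, edgeR quasi-likelihood test). The summed level of 6 adipocyte markers was 472 to 1330 CPM at day 0, 5760 to 7710 at day 2 and 8970 to 14300 at day 6. The summed median of 7 brown adipocyte markers went from 14.1 CPM at day 0 to 37.9 at day 6. Most of it was *Ppargc1a*, with medians of 13.6 and 22.9 CPM, and *Cox7a1* reached a median of 12.9 CPM at day 6. *Elovl3* had a median of 5.85 CPM at day 2 and 0.471 at day 6. *Cidea*, *Dio2* and *Prdm16* had medians of at most 0.519 CPM. *Ucp1*, the defining gene of brown fat, had at most 5 counts in a library. The 5 leukocyte markers summed to 2.77 to 12.7 CPM, mostly from *Cd68* (at most 204 counts). *Lyz2* had at most 88 counts, with a median of 2.06 CPM at day 0, *Csf1r* at most 20, and *Ptprc* and *Adgre1* 1 count or none. The 4 endothelial markers summed to at most 0.995 CPM, with at most 15 counts of *Pecam1*, 7 of *Tek*, and 1 or none of *Cdh5* and *Kdr*. Their part in the results was not tested. Replicate 1 of clone 48 *Rxra*SA at day 0 stood apart, with the lowest total, 1.21% of counts on ribosomal RNA genes and 3.06% on *Lars2*. Without it, none of the calls on the 10 genes changed in any comparison, and their log2 fold changes between days moved by at most 0.09.

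The 10 genes did not follow one course, as the plot of all 36 libraries shows. Tests between days counted the 12 libraries of a day separately, although same-numbered libraries of the genotypes deviated together. Between days 0 and 2, 4 rose (*Gsta3*, *Sod2*, *Gclc* and *Gclm*), 2 fell (*Nqo1* and *Gsta4*) and 4 did not pass the test, where 73.3% of all genes tested were called at an adjusted p below 0.05 (35.8% higher and 37.5% lower). Between days 2 and 6 all 10 were called, 7 higher and 3 lower, against 62.0% of all genes (31.9% higher and 30.1% lower). Between days 0 and 6, 7 rose, 2 fell and *Gclc* was not called, against 68.3% of all genes (32.9% higher and 35.4% lower). The median log2 fold change of the 10 genes was 0.08, 0.46 and 1.18 in these comparisons, where that of all genes was -0.02, 0.01 and -0.03. The share called was below the background from day 0 to day 2 and above it in the other comparisons, on 10 genes. In bulk RNA, fewer cells expressing a gene and less RNA per cell cannot be told apart.

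**Figure D1:**
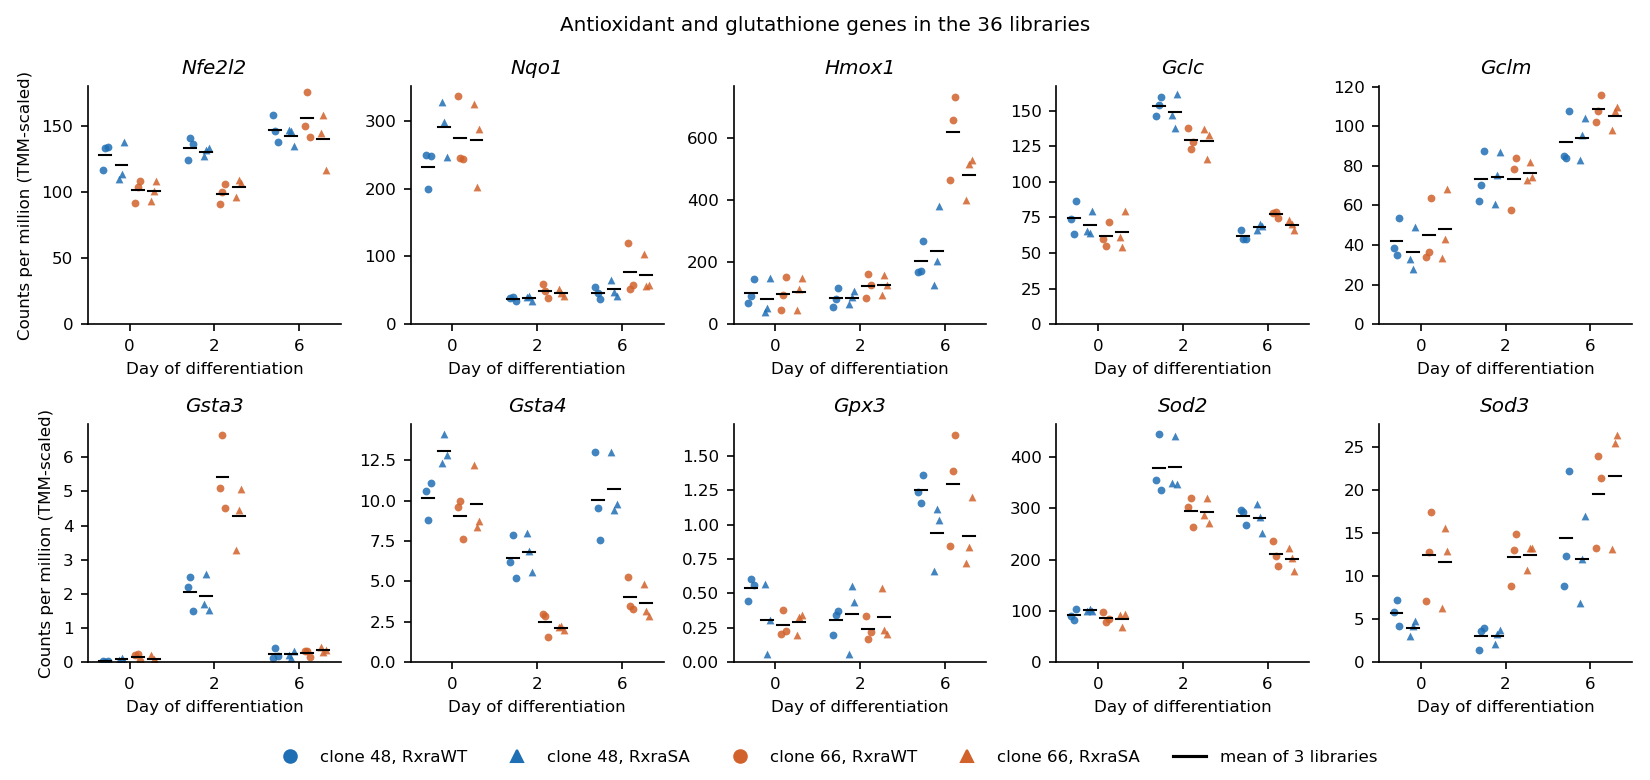
TMM-scaled CPM of each of the 10 genes in the 36 libraries (vertical axes, linear and starting at 0) by day of differentiation; colours are clones, circles *Rxra*WT, triangles *Rxra*SA and bars the mean of 3 libraries. *Nqo1* lay between 199 and 336 CPM at day 0 and between 33.7 and 120 afterwards, *Gclc*, *Sod2* and *Gsta3* were highest at day 2, and *Hmox1* and *Gpx3* were highest at day 6.

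*Nfe2l2* (ENSMUSG00000015839.6, chr2:75675513-75704641, minus strand), which encodes NRF2 itself, changed little. Over the 12 libraries of a day its lowest, median and highest values were 92.0, 109 and 138 CPM before induction, 90.6, 116 and 141 CPM on day 2, and 117, 146 and 176 CPM on day 6. The ranges of the 3 days overlapped. From day 0 to day 2 the log2 fold change was 0.05 ± 0.0663 (SE), which did not pass the test (95% interval -0.09 to 0.18, adjusted p = 0.517), and that from day 0 to day 6 was 0.39 ± 0.0664, a 1.31-fold rise (adjusted p = 3.8e-06, edgeR quasi-likelihood test with Benjamini-Hochberg adjustment, as throughout). When libraries were scaled by their totals alone, the median change of all genes from day 0 to day 2 shifted by -0.26, and *Nfe2l2* was then called lower (-0.21, adjusted p = 0.00507).

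*Nqo1* (ENSMUSG00000003849.8, chr8:107388225-107403206, minus strand) encodes NAD(P)H quinone oxidoreductase, which reduces quinones without forming radicals, and is among the most used readouts of NRF2. It had the highest level per kilobase of the 10 genes at day 0. Its lowest, median and highest values were 199, 248 and 336 CPM at day 0 and 33.7, 40.7 and 59.1 CPM at day 2. No library of day 2 reached any of day 0. On the log2 scale the change was -2.65 ± 0.138 (adjusted p = 2.11e-18), or 6.30-fold lower. At day 6 the 12 values ran from 37.3 through a median of 55.7 to 120 CPM, a log2 rise of 0.51 ± 0.131 over day 2 (adjusted p = 0.00113) that left *Nqo1* 4.43-fold below day 0.

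*Hmox1* (ENSMUSG00000005413.8, chr8:75093621-75100589, plus strand) encodes haem oxygenase 1, which opens the haem ring and releases iron, carbon monoxide and biliverdin. Its lowest, median and highest values were 38.0, 93.5 and 151 CPM at day 0, 55.1, 101 and 163 CPM at day 2, and 126, 392 and 734 CPM at day 6. It was thus spread widely within every day, and its rise was called between days 2 and 6. The log2 fold change was 0.10 ± 0.244 from day 0 to day 2 (adjusted p = 0.711), with an interval of -0.39 to 0.60, and 1.78 ± 0.251 from day 2 to day 6 (adjusted p = 1.63e-07), a 3.44-fold rise. Libraries of days 2 and 6 overlapped over both clones and did not overlap within either clone.

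The heavy and light subunits of glutamate-cysteine ligase, the enzyme of the first and rate-limiting step of glutathione synthesis, took separate courses. *Gclc* (ENSMUSG00000032350.9, chr9:77754535-77794485, plus strand), the catalytic subunit, had lowest, median and highest values of 54.0, 64.7 and 86.9 CPM at day 0, 116, 138 and 162 CPM at day 2, and 59.7, 69.8 and 79.0 CPM at day 6. It rose 2.06-fold and returned, and day 2 overlapped neither other day. Its log2 fold change was 1.04 ± 0.0745 from day 0 to day 2 (adjusted p = 1.14e-14) and -1.01 ± 0.0746 from day 2 to day 6 (adjusted p = 6.69e-14). Day 6 against day 0 gave 0.04 ± 0.0740 with an interval of -0.12 to 0.19 (adjusted p = 0.686).

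*Gclm* (ENSMUSG00000028124.15, chr3:122245557-122270732, plus strand), the modifier subunit that raises the activity of the catalytic one, had 28.0, 37.5 and 68.4 CPM at day 0, 57.7, 75.0 and 87.3 CPM at day 2, and 83.0, 103 and 116 CPM at day 6 as lowest, median and highest values. It rose at both steps, by 0.79 ± 0.114 to day 2 (adjusted p = 1.58e-07) and by 0.42 ± 0.113 from day 2 to day 6 on the log2 scale (adjusted p = 0.00151), 2.33-fold in all. Of its exon bases 4.71% were shared with *Gm17494* and *Gm6061*, the former antisense, so a small share of its reads is uncertain.

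The ratio of *Gclm* to *Gclc*, in counts per kilobase of exon within a library, needs no scaling between libraries. Taken over the 6 combinations of clone and replicate number, each the mean of both genotypes, its log2 value was -1.44 ± 0.32 (SD, n = 6) before induction, -1.66 ± 0.25 on day 2 and -0.21 ± 0.15 on day 6. There were thus 2.71 reads per kilobase of *Gclc* to 1 of *Gclm* at day 0, and 1.16 at day 6. The ratio rose 2.73-fold from day 2 to day 6 (adjusted p = 0.00487 over 9 ratio tests, two-sided exact permutation test, whose unadjusted 0.00216 is the smallest that 6 against 6 can give), by 1.56 in clone 48 and 1.33 in clone 66 on the log2 scale. From day 0 to day 2 the difference of -0.22 did not pass (exact adjusted p = 0.234).

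Glutathione S-transferases of the alpha class moved in opposite directions at day 2. *Gsta3* (ENSMUSG00000025934.15, chr1:21240589-21265661, plus strand) held 0 to 5 counts in a library at day 0 (22 counts in 12 libraries), 24 to 120 at day 2 (717 counts) and 2 to 9 at day 6 (62 counts). In CPM the lowest, median and highest values were 0, 0.0660 and 0.239 before induction, 1.49, 2.93 and 6.64 on day 2, and 0.123, 0.318 and 0.434 on day 6. Its pulse at day 2 overlapped neither other day. It rose by 5.12 ± 0.247 on the log2 scale to day 2 (adjusted p = 2.4e-19) and changed by -3.55 ± 0.209 from day 2 to day 6 (adjusted p = 1.69e-16). Its day 0 level rests on few reads, so the fitted fold depends on the prior count, and alpha-class genes have close copies, between which reads can be split or lost.

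*Gsta4* (ENSMUSG00000032348.6, chr9:78182774-78209349, plus strand), an alpha-class enzyme known for clearing aldehydes that arise from oxidised lipid, had lowest, median and highest values of 7.60, 10.3 and 14.1 CPM at day 0, 1.58, 4.09 and 7.97 CPM at day 2, and 2.85, 6.42 and 13.0 CPM at day 6. It fell by 1.43 ± 0.171 on the log2 scale to day 2 (adjusted p = 3.72e-09) and regained 0.68 ± 0.169 by day 6 (adjusted p = 0.000739). The clones differed in this gene more than in any of the other 9 at day 6, which is taken up below. The log2 ratio of *Gsta3* to *Gsta4* per kilobase was -8.57 ± 0.94 (SD, n = 6) at day 0, -2.11 ± 1.55 at day 2 and -6.23 ± 1.12 at day 6. *Gsta4* was in excess throughout, 380-fold at day 0 and 4.31-fold at day 2 as means over both clones. The clones were apart at day 2, with log2 ratios per library of -3.98 to -3.187 in clone 48 and -1.176 to -0.278 in clone 66. From day 0 to day 2 the ratio changed by 5.48 in clone 48 and 7.44 in clone 66. All 3 differences between days passed (adjusted p 0.00487, 0.00487 and 0.0117, exact permutation test).

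*Gpx3* (ENSMUSG00000018339.11, chr11:54902453-54910377, plus strand) encodes the secreted glutathione peroxidase of plasma. It was scarce, with 1 to 30 counts in a library. Its lowest, median and highest values were 0.0573, 0.337 and 0.606 CPM at day 0, 0.0633, 0.284 and 0.555 CPM at day 2, and 0.666, 1.14 and 1.65 CPM at day 6. Every library of day 6 exceeded every library of the other days. From day 2 to day 6 the log2 fold change was 1.83 ± 0.225, or 3.55-fold (adjusted p = 1.12e-08), and that from day 0 to day 2 was -0.16 ± 0.265 with an interval of -0.70 to 0.38 (adjusted p = 0.584).

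*Sod2* (ENSMUSG00000006818.5, chr17:13006846-13040063, plus strand), the manganese superoxide dismutase of mitochondria, had lowest, median and highest values of 69.3, 92.8 and 103 CPM at day 0, 263, 328 and 445 CPM at day 2, and 177, 244 and 308 CPM at day 6. It stayed above its day 0 range from day 2 onwards. The rise to day 2 was 1.87 ± 0.0733 on the log2 scale, 3.67-fold (adjusted p = 6.67e-22), and it fell by 0.47 ± 0.0710 from day 2 to day 6 (adjusted p = 6.55e-07).

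*Sod3* (ENSMUSG00000072941.5, chr5:52363791-52371418, plus strand), the secreted extracellular superoxide dismutase, had 3.08, 6.69 and 17.5 CPM at day 0, 1.37, 6.46 and 14.9 CPM at day 2, and 6.94, 15.2 and 26.4 CPM at day 6 as lowest, median and highest values. The ranges of the 3 days overlapped. The log2 fold change was -0.25 ± 0.226 to day 2 (adjusted p = 0.318) and 1.39 ± 0.229 from day 2 to day 6 (adjusted p = 2.62e-06). The log2 ratio of *Sod3* to *Sod2* per kilobase was -2.21 ± 0.93 (SD, n = 6) at day 0, -4.39 ± 1.41 at day 2 and -2.52 ± 0.89 at day 6. It fell by 2.18 and rose by 1.87 between successive days (adjusted p = 0.013 and 0.0334, exact permutation test), so that the excess of *Sod2* reads per kilobase was 4.62-fold at day 0 and 5.75-fold at day 6. The 2 changes were -2.7 and 2.52 in clone 48 and -1.66 and 1.21 in clone 66. Day 6 against day 0 differed by -0.31 (exact adjusted p = 0.554).

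**Figure D2:**
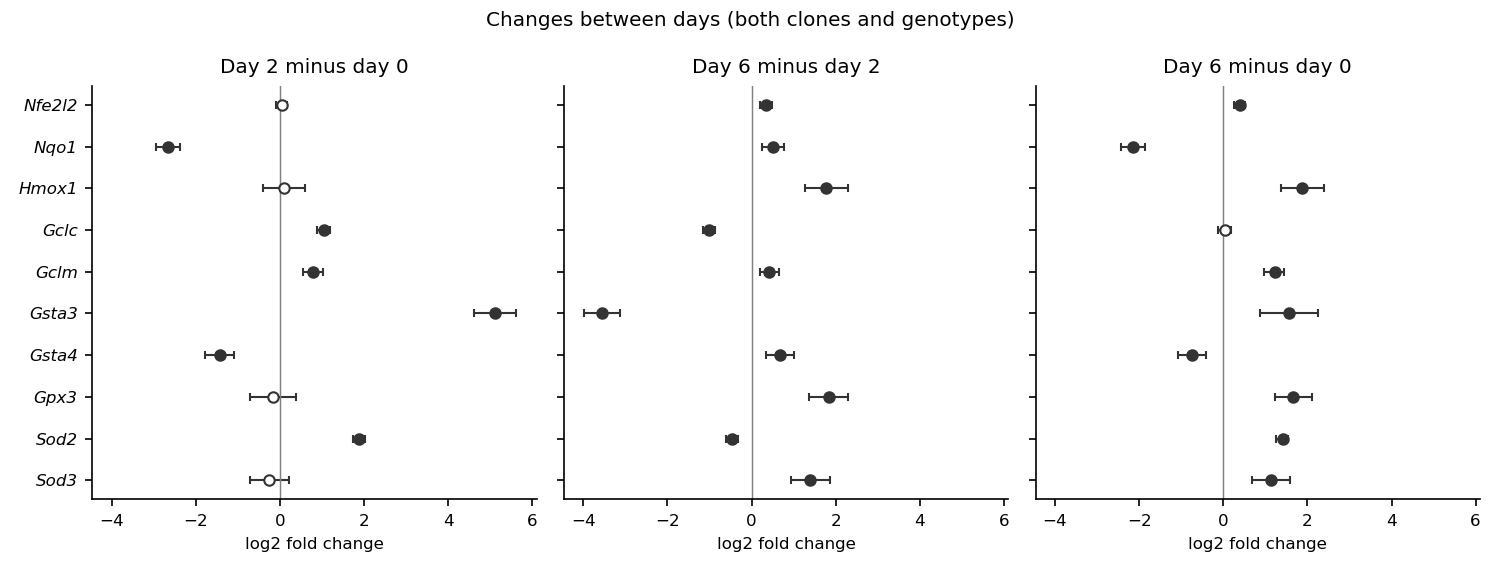
Log2 fold change of each gene between days (horizontal axes) over both clones and genotypes, with 95% intervals as bars; filled points passed an adjusted p of 0.05 and open points did not. *Gsta3* had the largest changes of the 10, 5.12 up to day 2 and -3.55 from day 2 to day 6, and 4 genes were open in the first comparison, none in the second and *Gclc* alone in the third.

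**Figure D3:**
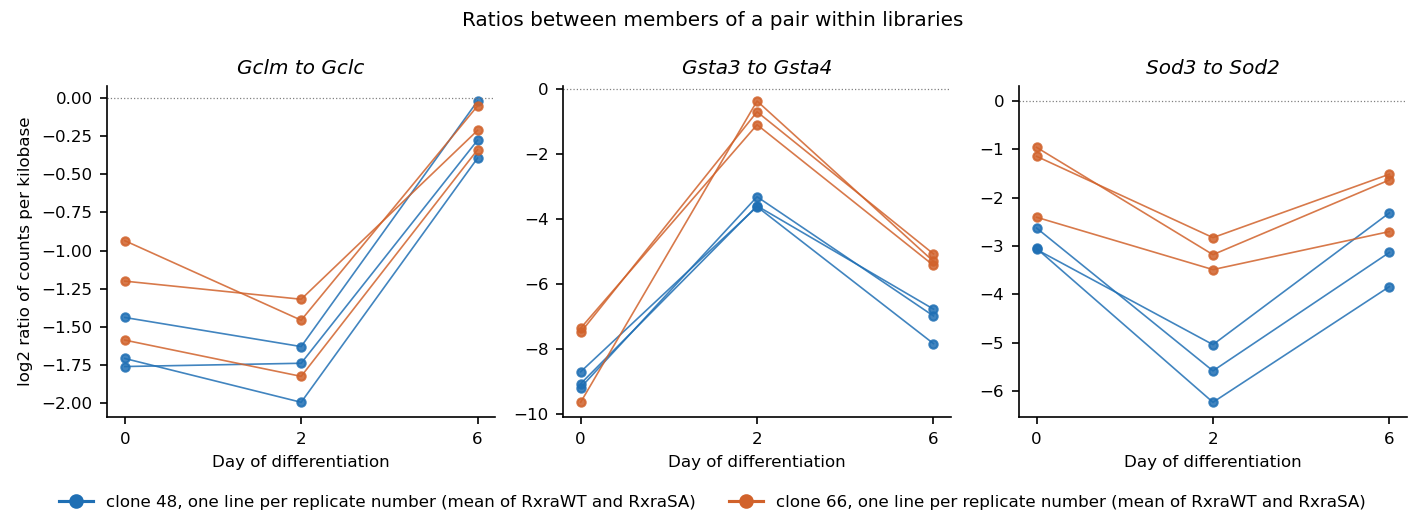
Log2 ratio of counts per kilobase within libraries (vertical axes) by day of differentiation for 3 pairs of genes, with 1 line per clone and replicate number. *Gclm* to *Gclc* went from -1.66 at day 2 to -0.21 at day 6, *Gsta3* to *Gsta4* peaked at day 2 and *Sod3* to *Sod2* was lowest at day 2.

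Ordered by level per kilobase (CPM divided by exon length in kilobases, median of 12 libraries), the day 0 cells were led by *Nqo1* at 160, followed by *Hmox1* at 53.4, *Nfe2l2* at 28.8, *Gclc* at 17.1, *Sod2* at 9.28, *Gsta4* at 8.14, *Gclm* at 5.96, *Sod3* at 1.79, *Gpx3* at 0.185 and *Gsta3* at 0.0152. The ranges of *Hmox1* and *Nfe2l2* overlapped, as did those from *Sod2* through *Gsta4* and *Gclm* to *Sod3* between neighbours, and those of *Gpx3* and *Gsta3*. At day 2 *Hmox1* (57.9), *Gclc* (36.7), *Sod2* (32.8), *Nfe2l2* (30.7) and *Nqo1* (26.2) overlapped from each to the next. At day 6 *Hmox1* stood alone at the top with 224, its lowest library at 72.1 against 46.2 in the highest of *Nfe2l2*, the next in order. *Nqo1* thus went from the first place to the fifth and then the third. Exon length counts every annotated exon base of a gene, 10008 for *Sod2* and 1266 for *Gsta4*, not that of an expressed transcript. The order between genes and the levels of the ratios above therefore depend on the annotation.

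The genes around these 10 were counted from 11 lists of related pathways, which hold 106 further genes, 85 of them tested. Of these 85, 45 were higher and 22 lower at day 2 than at day 0 (median log2 fold change 0.39), and 48 were higher and 14 lower at day 6 than at day 0 (median 0.44). They were called in 78.8% and 72.9% of cases, where all genes were called in 73.3% and 68.3%. From day 2 to day 6 the 85 genes were split almost evenly, 29 higher and 33 lower (median -0.02). They were called in 72.9% of cases, where all genes were called in 62.0% (31.9% higher and 30.1% lower). At that step 7 were higher and 12 lower in the list of glutathione synthesis, recycling and breakdown (median -0.34). The counts were 6 and 8 among NRF2 targets (median -0.02), and 11 and 4 among glutathione S-transferases (median 0.78). The remaining lists had 0 to 4 genes higher and 1 to 5 lower at that step. The lists overlap, and the counts by list, here and below, include the 10 genes.

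Among 10 genes of NRF2 and its regulators, 5 were higher and 2 lower at day 2 than at day 0, a balance that turned to 3 higher and 5 lower with library size alone. *Nfe2l1*, an NRF2 relative that drives proteasome genes, rose 2.75-fold by day 2 (221 ± 69.6 to 603 ± 165 CPM, SD, n = 12, adjusted p = 8.61e-11). *Bach1*, a repressor that competes with NRF2 at haem oxygenase and other targets, was 1.66-fold lower at day 2 and 2.25-fold lower at day 6 than at day 0 (101 ± 15.6, 60.7 ± 6.52 and 44.8 ± 2.81 CPM). *Maff*, a small MAF partner, was 4.96-fold higher at day 6 than at day 0 (adjusted p = 3.32e-19), while its relative *Mafk* was 1.75-fold lower (adjusted p = 3.85e-10).

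Of 21 NRF2 target genes, 13 rose and *Nqo1* alone fell from day 0 to day 2, with a median log2 fold change of 0.62. With library size alone, 11 rose and 4 fell. At day 6, 12 were higher and 3 lower than at day 0. *Taldo1*, transaldolase of the pentose phosphate pathway, went from 100 ± 18.5 to 702 ± 126 CPM at day 2 (6.98-fold, adjusted p = 6.64e-21), and *Slc7a11*, the cystine importer that feeds glutathione synthesis, from 3.97 ± 2.07 to 17.9 ± 3.19 CPM (5.02-fold, adjusted p = 1.08e-08).

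Of 21 genes of glutathione synthesis, recycling and breakdown, 13 were higher and 3 lower at day 2 and 12 were higher and 2 lower at day 6 than at day 0, with 13 and 5, and 12 and 6, under library size alone. *Cth*, which makes cysteine from cystathionine, was the largest rise named from this list, from 6.73 ± 2.38 to 171 ± 33.0 CPM at day 2 (26.1-fold, adjusted p = 2.43e-20), and was 6.79-fold above day 0 at day 6. *Chac1*, which degrades glutathione, rose 6.92-fold at day 2 (adjusted p = 1.61e-12), whereas *Ggt7*, of the gamma-glutamyltransferase family, fell 6.11-fold (adjusted p = 9.17e-17).

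The glutathione S-transferases were split, as *Gsta3* and *Gsta4* were: of 18 tested among 25, 8 rose and 8 fell from day 0 to day 2. *Gstt1* fell 26.3-fold, from 31.0 ± 23.4 to 1.21 ± 0.984 CPM, and *Gstm2* 10.7-fold, from 71.6 ± 12.2 to 6.67 ± 1.41 CPM. The membrane-bound *Mgst1* rose 6.18-fold, from 124 ± 62.2 to 730 ± 250 CPM, and *Mgst3* 5.95-fold, from 190 ± 43.9 to 1130 ± 229 CPM. By day 6, 11 were higher than at day 0 and 3 lower, the balance being 9 and 6 under library size alone. *Gstm2* was then back at 91.1 ± 10.2 CPM. Genes of this family share sequence, and reads between close copies are uncertain.

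Of the 4 glutathione peroxidases tested among 8, *Gpx4*, which protects membranes from lipid peroxides, rose 1.53-fold by day 2 (adjusted p = 3.42e-05), *Gpx8* fell 5.66-fold (adjusted p = 1.6e-16), and *Gpx1*, the abundant cytosolic enzyme, was 2.09-fold lower at day 6 than at day 0 (109 ± 16.1 and 52.4 ± 10.3 CPM, adjusted p = 3.67e-11). Beside *Sod2*, catalase rose 8.44-fold, from 76.7 ± 6.96 to 651 ± 113 CPM at day 2 (*Cat*, adjusted p = 2.64e-27). All 5 genes of the dismutase and catalase list were higher at day 6 than at day 0, 4 of them under library size alone, and 3 rose and 0 fell to day 2 (3 and 2 under library size alone). In the thioredoxin system 6 of 13 genes rose and 4 fell from day 0 to day 2 (5 and 6 under library size alone), the mitochondrial peroxiredoxin *Prdx3* rising 3.85-fold and the endoplasmic reticulum peroxiredoxin *Prdx4* falling 1.87-fold.

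Around *Hmox1*, 4 of 8 genes of haem and iron handling rose and 1 fell from day 0 to day 2. The transferrin receptor *Tfrc* rose from 130 ± 37.5 to 913 ± 240 CPM (6.95-fold, adjusted p = 1.49e-16), and the iron exporter *Slc40a1* fell from 17.5 ± 6.12 to 1.29 ± 0.411 CPM (13.4-fold, adjusted p = 1.83e-18) and was at 15.1 ± 3.68 CPM at day 6. With library size alone, 2 of the 8 rose and 2 fell. Of 8 genes of NADPH supply, which keeps glutathione reduced, 6 rose and 2 fell by day 2 and 7 were higher and 1 lower at day 6. *G6pdx*, the entry enzyme of the pentose phosphate pathway, rose 3.05-fold by day 2 (adjusted p = 9.56e-17), the mitochondrial *Idh2* fell 1.39-fold (adjusted p = 3.08e-07), and the cytosolic *Idh1* was 3.44-fold higher at day 6 than at day 0 (adjusted p = 6.06e-16). Both metallothioneins tested were higher at day 2, *Mt2* by 4.88-fold, although 1 of them under library size alone. Both NADPH oxidase genes tested among 10 were lower at day 2.

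**Figure D4:**
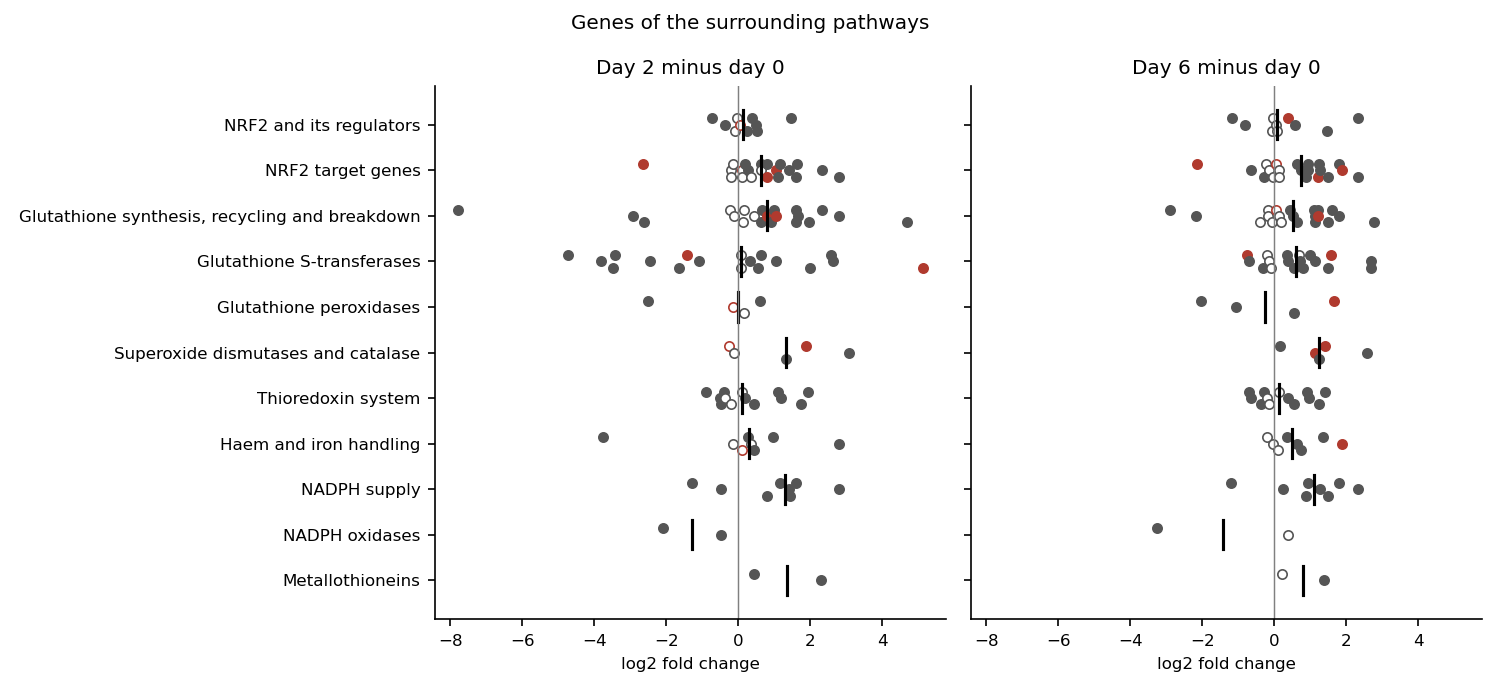
Log2 fold change (horizontal axes) of every tested gene in the 11 lists, for day 2 and day 6 against day 0; filled points passed an adjusted p of 0.05, red marks the 10 genes described here and vertical bars are list medians. The *Nqo1* point, at -2.65 and -2.15, lies to the left of the other targets of NRF2, and the glutathione S-transferases spread on both sides of 0 at day 2.

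As a description of shape, the mean log2 CPM of each gene over the 12 groups was compared with that of the 9381 genes whose average log2 CPM was at least 3. The groups share days, so high correlations follow from any shared time course. Closest by Pearson correlation were *Vamp1* (0.967) and *Plxna2* (0.964) to *Nfe2l2*, *Hace1* and *Lncpint* (both 0.994) to *Nqo1*, *Ypel3* (0.986) and *Mmab* (0.973) to *Hmox1*, *Trmt2a* (0.994) and *Prpf4* (0.988) to *Gclc*, and *Srpk1* (0.996) and *Dgkd* (0.991) to *Gclm*. They were *Timm10b* (0.993) and *Cdc123* (0.991) for *Gsta3*, *Cuedc2* (0.969) for *Gsta4*, *0610030E20Rik* (0.975) and *Bcl7a* (0.966) for *Gpx3*, *Gatad1* (0.997) and *Mknk2* (0.996) for *Sod2*, and *Gab2* (0.982) and *Ube2b* (0.977) for *Sod3*.

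*Rxra*SA and *Rxra*WT were compared within each day, 6 libraries against 6 over both clones, at first without pairing by replicate number. None of the 10 genes was called at any day, with an adjusted p of 1.0 for each and none at an unadjusted p below 0.05, where 0 of 16723 genes were called at each day (139, 162 and 125 at an unadjusted p below 0.05 by edgeR, and 0 called by DESeq2, with 116, 130 and 101). The log2 fold changes lay between -0.41 and 0.21 before induction, -0.24 and 0.32 on day 2, and -0.46 and 0.21 on day 6. The width of the intervals varied between genes: at day 6 they were -0.29 to 0.09 for *Nfe2l2*, -0.22 to 0.20 for *Gclc*, -0.25 to 0.16 for *Sod2* and -0.33 to 0.31 for *Gclm*, -0.83 to 0.56 for *Hmox1*, which varied widely between replicates, and -0.59 to 1.02 for *Gsta3*. In the interactions of genotype with day, 0 of the 10 genes and 0 of all genes were called (144, 153 and 128 at an unadjusted p below 0.05 by edgeR, 125, 133 and 109 by DESeq2, which also called 0). With same-numbered libraries paired within each day, more genes had an unadjusted p below 0.05 (704, 692 and 477 of 16723 at days 0, 2 and 6, edgeR). The lowest unadjusted p among the 10 genes was then 0.037, 0.11 and 0.0318 (edgeR), and none of the 10 was called.

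Without pairing, the lowest p among the 10 genes belonged to *Gpx3* at day 6. In clone 48 its values were 1.24, 1.16 and 1.36 CPM with *Rxra*WT and 0.666, 1.11 and 1.03 CPM with *Rxra*SA, and in clone 66 they were 0.846, 1.39 and 1.65 CPM against 0.724, 0.837 and 1.20 CPM, in order of replicate number. The *Rxra*SA library was the lower in 6 of 6 same-numbered pairs, on 12 to 30 counts a library. The log2 fold change was -0.46 ± 0.260, with an interval of -0.99 to 0.07, and did not pass (unadjusted p = 0.0879, adjusted p = 1.0, edgeR). *Nfe2l2* at day 6 was likewise lower with *Rxra*SA in 6 of 6 pairs, by 0.10 ± 0.0937 on the log2 scale as fitted (adjusted p = 1.0). In replicate 2 of clone 48 both its libraries rounded to 146 CPM. These 2 cases were picked after the counts of pairs of all 10 genes at all 3 days were seen. No other gene and day among them had 6 of 6 pairs in the same direction, and the share over all genes was not counted.

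**Figure D5:**
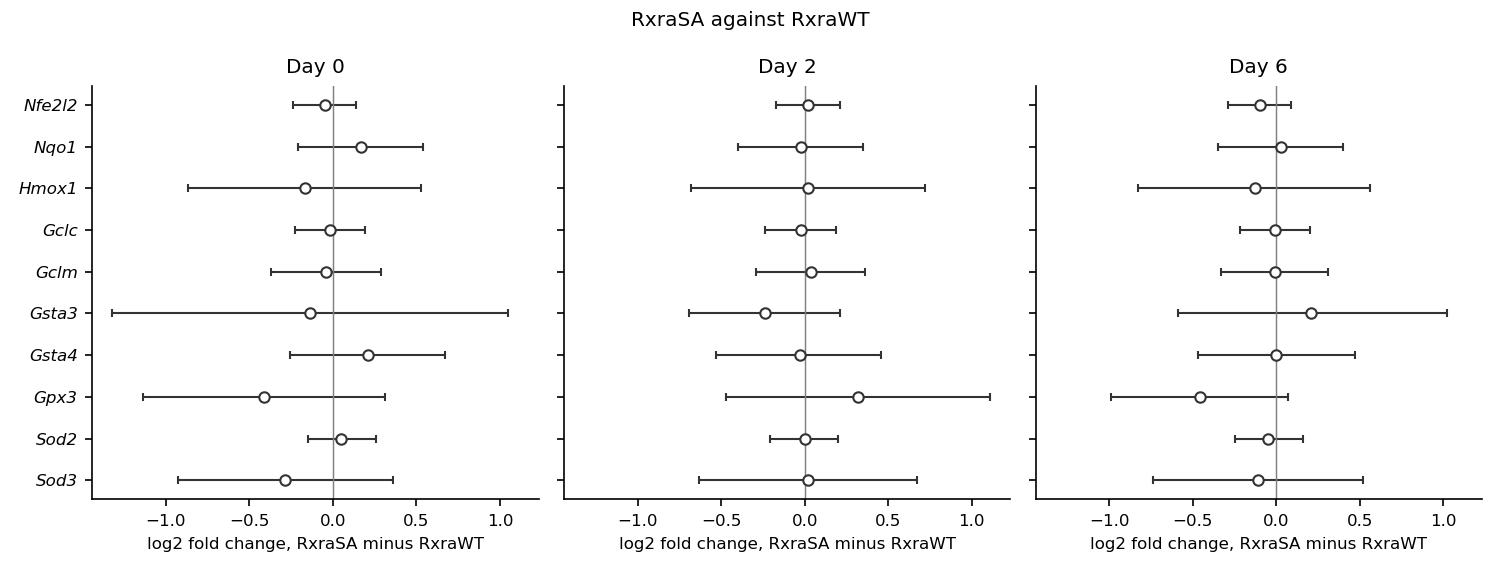
Log2 fold change of *Rxra*SA minus *Rxra*WT for each gene at days 0, 2 and 6 (horizontal axes) with 95% intervals as bars; all points are open, as none passed an adjusted p of 0.05. Every interval includes 0, the widest being that of *Gsta3* at day 0, from -1.32 to 1.05.

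The clones differed in several of the genes. Clone 48 was sequenced in library pool 1 and clone 66 in pool 2, so that clone and pool cannot be told apart. Fits between clones counted the *Rxra*WT and *Rxra*SA libraries of a replicate number separately. These deviated together, so the p-values may be too small. At day 0, 1 of the 10 genes was higher and 1 lower in clone 66 than in clone 48, at day 2 2 were higher and 3 lower, and at day 6 2 were higher and 2 lower, where 23.7% (12.6% higher, 11.1% lower), 30.0% (14.5% and 15.5%) and 26.2% (13.4% and 12.8%) of all genes were called. The share among the 10 was close to the background at day 0 and above it at days 2 and 6, on few genes.

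*Gsta4* had the largest difference of the 10 at day 6. In clone 48 its lowest, median and highest values over 6 libraries were 8.78, 11.7 and 14.1 CPM at day 0, 5.21, 6.53 and 7.97 CPM at day 2, and 7.54, 9.66 and 13.0 CPM at day 6. In clone 66 they were 7.60, 9.14 and 12.2 CPM, then 1.58, 2.21 and 2.97 CPM, then 2.85, 3.4 and 5.30 CPM. The clones overlapped at day 0 and were apart at days 2 and 6. Clone 66 was lower by 1.52 ± 0.183 at day 2 (adjusted p = 1.64e-07) and by 1.44 ± 0.175 at day 6 (adjusted p = 2.55e-07) on the log2 scale, whereas day 0 gave -0.30 ± 0.167 (adjusted p = 0.220). The change to day 2 itself differed between clones by -1.22 ± 0.247 (adjusted p = 0.00152), being -0.80 in clone 48 and -2.03 in clone 66, and that to day 6 by -1.14 ± 0.241 (adjusted p = 0.00408). Over both clones the fall to day 6 was no longer called in a fit with no term for clone (-0.56, adjusted p = 0.0721).

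*Sod3* was higher in clone 66. Its lowest, median and highest values were 3.08, 4.50 and 7.21 CPM at day 0, 1.37, 3.42 and 4.03 CPM at day 2 and 6.94, 12.2 and 22.2 CPM at day 6 in clone 48, and 6.30, 12.9 and 17.5 CPM, 8.90, 13.2 and 14.9 CPM, and 13.1, 22.7 and 26.4 CPM in clone 66. The clones were apart at day 2 only. The difference was 1.32 ± 0.291 at day 0 (adjusted p = 0.00103) and 2.03 ± 0.304 at day 2 (adjusted p = 5.56e-06) on the log2 scale, and 0.64 ± 0.279 at day 6 (adjusted p = 0.0922). With the replicate number as a block, the day 6 difference fitted for replicate number 1 was called (0.61, adjusted p = 0.0388). The rise from day 2 to day 6 was 2.12 in clone 48 and 0.74 in clone 66, a difference of -1.39 ± 0.408 (adjusted p = 0.0365).

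*Hmox1* overlapped between the clones at day 0 and was apart at day 6. Its lowest, median and highest values at day 6 were 126, 189 and 382 CPM in clone 48 and 401, 523 and 734 CPM in clone 66. The difference at day 6 was 1.31 ± 0.337 on the log2 scale, 2.48-fold (adjusted p = 0.00392), against 0.14 ± 0.333 at day 0 (adjusted p = 0.814). The change from day 0 to day 6, 1.28 in clone 48 and 2.45 in clone 66, differed by 1.17 ± 0.472, which did not pass (adjusted p = 0.206) but passed with the replicate number as a block (1.23, adjusted p = 0.000834).

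*Nqo1* at day 6 had 37.3, 46.2 and 64.7 CPM in clone 48 and 52.4, 57.2 and 120 CPM in clone 66 as lowest, median and highest values, a log2 difference of 0.62 ± 0.183 (adjusted p = 0.0121). The 2 highest libraries, at 120 and 103 CPM, were replicate 1 of *Rxra*WT and of *Rxra*SA in clone 66. The call was lost without either, at 0.39 (adjusted p = 0.0766) without the former and 0.44 (adjusted p = 0.0655) without the latter. With the replicate block, the difference between clones within a day is that fitted for replicate number 1, not for all replicates. For *Nqo1* at day 2 it was called (0.54, adjusted p = 0.00636). The difference over all replicates, without the block, was not (0.32, adjusted p = 0.201).

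*Gsta3* at day 2 had 1.49, 1.96 and 2.57 CPM in clone 48 and 3.30, 4.80 and 6.64 CPM in clone 66, with no overlap and a log2 difference of 1.27 ± 0.218 (adjusted p = 3.78e-05). *Sod2* was lower in clone 66 by 0.37 ± 0.0983 at day 2 (adjusted p = 0.00464) and by 0.46 ± 0.0985 at day 6 (adjusted p = 0.000684). With the replicate block, the *Sod2* difference fitted for replicate number 1 at day 2 was -0.25 (adjusted p = 0.119). *Nfe2l2* was lower in clone 66 by 0.30 ± 0.0812 at day 0 and 0.38 ± 0.0813 at day 2 (adjusted p = 0.00671 and 0.000521), and at day 6 the clones gave 0.03 ± 0.0811 (adjusted p = 0.847). Its change from day 2 to day 6 differed by 0.41 ± 0.115 (adjusted p = 0.0263), being 0.13 in clone 48 and 0.54 in clone 66. *Gclm* and *Gpx3* were called in no comparison between clones.

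The number of genes among the 10 whose change over time differed between clones depended on the replicate block. Without it 1 (day 0 to 2), 2 (day 2 to 6) and 1 (day 0 to 6) were called, against 6.84% (3.61% higher, 3.23% lower), 6.18% (3.15% and 3.03%) and 3.85% (2.1% and 1.75%) of all genes. Of these calls *Gsta4* was lower at both steps from day 0, and from day 2 to day 6 *Nfe2l2* was higher and *Sod3* lower in clone 66. With it 2, 4 and 4 were called, against 13.4%, 12.4% and 8.19% of all genes. The calls gained were *Sod3* from day 0 to 2 (0.83, adjusted p = 0.0266), *Hmox1* (0.81, 0.02) and *Gclc* (0.40, 0.0148) from day 2 to 6, and *Hmox1*, *Nqo1* (0.50, 0.0466) and *Gclc* (0.36, 0.0453) from day 0 to 6, each higher in clone 66.

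Libraries with the same replicate number mostly deviated together across genotype, though weakly in some pairs of day 0 (correlation as low as 0.176 in clone 48 and 0.236 in clone 66). At day 0 *Hmox1* and *Gclm* were highest in the libraries numbered 3 in both clones. At day 0 the 4 libraries numbered 3 held 147 to 151 CPM of *Hmox1*, the 4 numbered 2 held 52.7 to 115 CPM and the 4 numbered 1 held 38.0 to 66.9 CPM. For *Gclm* they held 49.1 to 68.4, 28.0 to 43.0 and 33.1 to 38.3 CPM. The spread of *Hmox1* among the 12 libraries of day 0 was thus mostly a spread between replicate numbers. The genotypes still differed in clone 48, with 66.9 CPM (*Rxra*WT) and 38.0 CPM (*Rxra*SA) in replicate 1 and 91.9 and 52.7 CPM in replicate 2. At day 2 the order of the numbers was not shared. *Hmox1* was highest in replicate 3 in clone 48 (118 and 107 CPM) and in replicate 2 in clone 66 (163 and 160 CPM). For *Nqo1* at day 6 the libraries numbered 1 were the highest on average (85.7 ± 30.9 CPM, SD, n = 4, against 50.4 ± 5.08 and 48.4 ± 10.3 CPM). What the numbers share was not tested.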

How the data were processed

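The data are 36 RNA libraries, 3 for each of 2 clones, 2 genotypes and 3 days. The authors aligned reads with STAR 2.7.0d and counted read pairs per gene with featureCounts 1.6.2 (GRCm38, GENCODE M21), and deposited these raw counts, which are not normalized. The tools are as named in the submitters' processing notes. Totals of 11351078 to 24349263 counts per library set the precision, and intervals cover the fit's error only.

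Counts were tested with the edgeR 4.0.16 quasi-likelihood test (glmQLFit and glmQLFTest) after filterByExpr (16723 of 55536 genes) and TMM scaling, with genotype by day and clone as terms, as in the study's model. Comparisons between clones used 1 coefficient for each clone, genotype and day. P-values were adjusted by Benjamini-Hochberg over all genes tested and called below 0.05. Ratios of counts per kilobase, 0.5 added, were compared by exact permutation tests over 6 values a day. These tests used neither clone nor the match of clone and replicate number between days, so the spread between clones enters them. Intervals are 95%. Fits were tested on simulated data. Alternatives were the replicate number as a block, DESeq2 1.42.0, the version 4 form of the edgeR test, RLE or total scaling, 2 other filters, no clone term and each library left out.

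Same-numbered *Rxra*WT and *Rxra*SA libraries deviated together from their group means (correlation 0.176 to 0.93 over 18 pairs, mean 0.71, 9381 genes), so the numbers were taken to pair samples. The ratio tests took each pair as 1 value. The edgeR tests between days and between clones counted its libraries separately. The study's texts differ on whether replicates were technical or independent, and p-values then measure only the spread between these samples. The comparisons between days share samples. All 10 genes are described, and examples from each pathway list were taken from up to 2 genes with the largest called changes in each direction, at day 2 and at day 6 against day 0, where the mean log2 CPM reached 3. For each of the 10 genes the 2 genes of most similar course were named, except 1 that is not reported here. The genes and lists were chosen with earlier results of these data known.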

Additional observations from a re-analysis of the deposited data

Results flagged for a closer look

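In 3 genes the change over time differed between the clones by a test of the difference itself (edgeR quasi-likelihood test, clone 66 minus clone 48, log2 scale). For *Gsta4* it was -1.22 from day 0 to day 2 (adjusted p = 0.00152) and -1.14 from day 0 to day 6 (adjusted p = 0.00408). For *Nfe2l2* it was 0.41 from day 2 to day 6 (adjusted p = 0.0263), and the call was lost without clone 48 *Rxra*SA day 2 replicate 3 (0.38, adjusted p = 0.0702), clone 66 *Rxra*WT day 6 replicate 2 (0.37, 0.0622) or clone 66 *Rxra*SA day 6 replicate 2 (0.39, 0.0529). For *Sod3* it was -1.39 from day 2 to day 6 (adjusted p = 0.0365). Its call was lost in 13 of 36 fits that left out a library: in clone 48, day 2 *Rxra*WT replicate 1 and *Rxra*SA replicates 1 and 2, and day 6 *Rxra*WT replicate 3 and *Rxra*SA replicates 2 and 3; in clone 66, day 2 replicates 2 and 3 of both genotypes, and day 6 *Rxra*WT replicates 1 and 3 and *Rxra*SA replicate 1. The value then ranged from -1.4 to -1.16. Clone and pool cannot be told apart.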

How the results depend on the processing

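Over 9 alternative settings and 36 left-out libraries, 7798 of 7860 values of the 10 genes kept their direction and side of the threshold, 22 lost a call, 39 gained one and 1 reversed. With library size alone, 4 of the 10 genes were lower at day 2 than at day 0 in place of 2, and *Nfe2l2* reversed to -0.21. With no clone term 1 gene was lower at day 6 than at day 0 in place of 2. With no filter 0 genes were lower in clone 66 at day 0 in place of 1 (*Nfe2l2*, adjusted p = 0.108).

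For changes over time that were higher in clone 66, the replicate block, which pairs libraries by number, called 1 gene from day 0 to 2 in place of 0, 3 from day 2 to 6 in place of 1, and 3 from day 0 to 6 in place of 0. DESeq2 called 2 and no filter 0 from day 2 to 6, and no filter called 1 from day 0 to 6. The block changed the calls given beside the results and raised the counts over all genes from 1144, 1033 and 644 to 2248, 2082 and 1369. For differences between clones within a day, values with the block are those fitted for replicate number 1. Within each day, the block called 1 gene by genotype at day 2, none of the 10 (their lowest adjusted p was 0.807 at day 0 and 1.0 at days 2 and 6). The difference between clones in the genotype effect at day 0 had 0 calls, 3 with the block and 5 with no filter. The cause was not tested.

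When libraries were left out, genes lower in clone 66 at day 0 numbered 1 to 2 (2 without clone 66 day 0 replicate 3 of either genotype) and genes higher at day 6 numbered 1 to 3. Changes from day 2 to 6 that were higher in clone 66 numbered 0 to 2 and lower ones 0 to 1, and changes from day 0 to 6 that were higher numbered 0 to 1. *Gclc* gained a difference between clones at day 2 in 10 such fits and in the change from day 2 to 6 in 8, and *Sod3* at day 6 in 3. With library size alone, called genes were higher in 33.6% against 48.9% (day 2 against day 0), 34.9% against 48.2% (day 6 against day 0) and 41.0% against 51.2% (clone 66 against clone 48 at day 6). No ratio test changed its call under any alternative that gave a value. Depth limits *Gsta3* at day 0 and *Gpx3*.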
